A study of Rattus norvegicus with 23 samples.

Results

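Levels of 4 genes of the nitric oxide and endothelin systems were followed in the heart apex of rats that had received a kidney transplant. The genes were chosen by their Ensembl rat identifiers: Nos3 (ENSRNOG00000009348), Edn1 (ENSRNOG00000014361), Ednra (ENSRNOG00000013721) and Ednrb (ENSRNOG00000010997). They are 4 of the 26405 genes in the count files, and 4 of 4 passed the filter on low counts that left 11568 genes for testing. The files carry identifiers without gene names, so the pairing of each symbol with its identifier was taken from the definition of the gene set and could not be checked against the files.

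RNA-seq was performed on polyadenylated RNA of 23 Lewis rats, an inbred strain, in 4 groups that crossed the state of the kidney donor with that of the recipient. The group HD-HR (n = 6) had no diseased animal, CD-HR (n = 6) a diseased donor, HD-CR (n = 5) a diseased recipient, and for CD-CR (n = 6) donor and recipient were both diseased. The disease, chronic kidney disease (CKD), was produced by coagulation of renal artery branches on both sides, which removed part of the renal mass, and then by L-NNA, a nitric oxide synthase inhibitor, at 200 mg/L in the drinking water with 6% NaCl in the chow until proteinuria reached 200 mg per 24 h. Both additions had been stopped before transplantation, for which a proteinuria of 100 mg per 24 h without them was required. Rats of all 4 groups received a left kidney isograft, for which the protocol lists 30 min of ischemia. All lost the right native kidney 10 to 14 days later, so that the graft was the remaining kidney. Hearts were collected 6 weeks after transplantation. A CKD recipient had therefore itself been exposed to renal ablation, L-NNA and high salt, which cannot be told apart here, whereas in CD-HR only the donor had been exposed. Neither age nor sex is given in the sources used here.

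Nos3 encodes endothelial nitric oxide synthase, which makes nitric oxide, a vasodilator, from arginine in the lining of blood vessels and of the heart chambers. L-NNA blocks the activity of the enzyme, which an RNA level does not report. Edn1 encodes the precursor of endothelin-1, a strong vasoconstrictor that is also released by endothelium. Ednra encodes the type A receptor, which mediates contraction of vascular smooth muscle and is also found on cardiomyocytes, and Ednrb encodes the type B receptor, which on endothelium clears endothelin-1 and stimulates nitric oxide release. In whole tissue, fewer cells of a type and less RNA per cell cannot be told apart.

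Libraries held 7391929 to 12444980 counts in genes. One library, CD-CR1, lay outside the range of the others in the composition of its RNA (its 10 most abundant genes took 48.8% of the counts, against 51.4% to 68.6% elsewhere). The animal names in the deposited file names begin with 12 or 13, a prefix that the labels do not explain. All 12 healthy recipients have the prefix 13, as have 1 HD-CR rat and 1 CD-CR rat, and the remaining 9 CKD recipients have the prefix 12. Differences between CKD and healthy recipients are therefore nearly confounded with the prefix. Lists of vascular, cardiac and other cell markers and of other pathway genes could not be matched to the identifiers, so the tissue label was not checked and the share of endothelial cells was not tested.

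No member passed the test in any of 8 comparisons among the groups (32 tests, edgeR's quasi-likelihood test with Benjamini-Hochberg adjustment over 11568 genes, called at an adjusted p under 0.05). By group mean the synthase gene Nos3 was highest in CD-CR and HD-CR, though its direction by recipient turned under 1 setting. The ligand gene Edn1 was highest when donor and recipient both had CKD. Within prefix 13, with 1 CD-CR and 1 HD-CR rat, Edn1 in CD-CR was instead below HD-HR (log2 -0.091) and HD-CR (-0.95). The receptor gene Ednra was highest in HD-CR, and the receptor gene Ednrb was near-level. At an unadjusted p under 0.05 there were 4 of the 32, namely Nos3 by recipient averaged over donors, Edn1 by recipient with a CKD donor, and Ednra by recipient with a healthy donor and by donor in CKD recipients. Of all genes, 29.5% had an unadjusted p under 0.05 by recipient averaged over donors, 18.1% with a healthy donor and 17.8% with a CKD donor. By donor in CKD recipients the share was 8.31%, between CD-CR and HD-HR 18.6% and in the interaction 3.26%. DESeq2 likewise called 0 of 32, with the same 4 at an unadjusted p under 0.05, and limma-voom called 0 with 5, the fifth being the Ednra interaction.

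**Figure D1:**
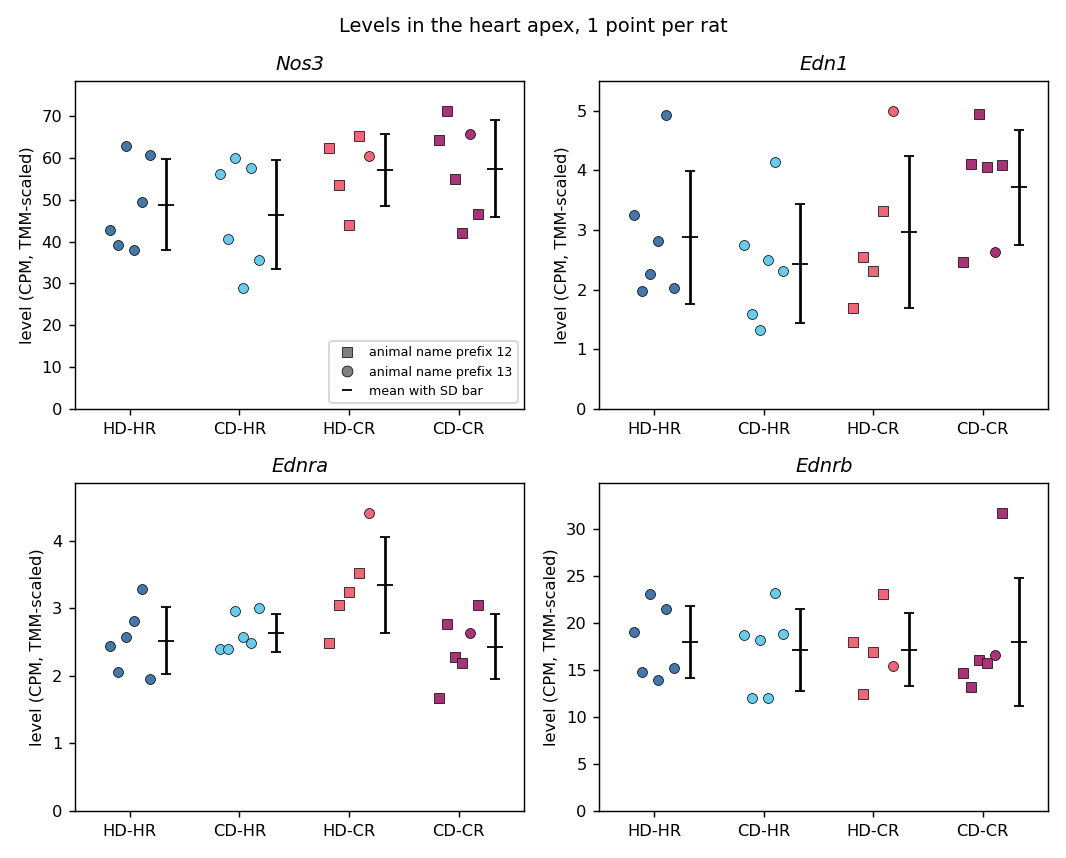
Levels (CPM, scaled by TMM) of Nos3, Edn1, Ednra and Ednrb on the y axes, from 0, in the 4 groups on the x axes, with 1 point per rat, squares and circles for animal name prefixes 12 and 13, and the group mean with its SD at the right of each group. The 4 groups overlap for every gene, HD-CR has the highest mean Ednra (3.34 CPM), and CD-CR6 stands alone for Ednrb at 31.8 CPM.

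Nos3, the synthase gene, had 306 to 746 counts per library. In HD-HR its level, in TMM-scaled CPM (counts relative to library size), ran from 37.9 to 62.9 CPM with a median of 46.2, and in CD-HR from 28.98 to 60.0 CPM with a median of 48.3. In HD-CR the 5 rats stood at 62.3, 53.4, 44.0, 65.2 and 60.3 CPM, and in CD-CR the range was 42.0 to 71.2 CPM with a median of 59.5. The lowest rats were thus healthy recipients and the highest a CKD recipient, but all 4 ranges overlapped. The group means were 46.4 ± 13.1 CPM in CD-HR (SD, n = 6), 48.8 ± 10.9 in HD-HR (n = 6), 57.0 ± 8.50 in HD-CR (n = 5) and, highest, 57.4 ± 11.6 for the CD-CR rats (n = 6), and neighbours in this order differed by less than 1 SD.

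Averaged over donors, Nos3 was 1.20-fold in CKD against healthy recipients (log2 0.27 ± 0.13 SE), with a 95% interval of 1.01 to 1.44 (edgeR adjusted p = 0.157). Of the 11568 genes, 12.8% were called in this comparison, and 0 of the 4 members, a count too small to set them apart from that share. A p at least as small as that of Nos3 was reached by 28.1% of genes. With a healthy donor the log2 fold change was 0.22 ± 0.18 (edgeR adjusted p = 0.534), and with a CKD donor 0.31 ± 0.17 (adjusted p = 0.359), which within prefix 13 were 0.35 ± 0.34 and 0.51 ± 0.33. Adding the name prefix to the fit made the averaged value 0.41 ± 0.23 (edgeR adjusted p = 0.332), and among rats of prefix 13 alone, with 2 CKD recipients, 0.43 ± 0.24 (adjusted p = 0.344). With 2 surrogate variables it turned negative, -0.14 ± 0.13 (edgeR adjusted p = 0.83). A direction for Nos3 is therefore not given.

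Nos3 levels by donor lay close together. The log2 fold change was -0.075 ± 0.17 in healthy recipients and 0.010 ± 0.18 in CKD recipients (edgeR adjusted p = 0.948 and 0.991). Averaged over recipients it was -0.032 ± 0.13, with a 95% interval of 0.817 to 1.17-fold, which ends below the 1.20-fold fitted by recipient. The intervals within healthy recipients (0.740 to 1.22-fold) and within CKD recipients (0.777 to 1.30-fold) both hold 1.20-fold. With 2 surrogate variables the averaged donor value was 0.16 ± 0.11. A donor difference of that size is therefore not excluded.

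Edn1 was counted sparsely, with 12 to 52 counts per library. Its level ran from 1.97 to 4.92 CPM in HD-HR (median 2.54), from 1.33 to 4.14 in CD-HR (median 2.401) and from 2.46 to 4.95 in CD-CR (median 4.07), and the 5 HD-CR rats stood at 1.69, 2.55, 2.31, 3.31 and 4.99 CPM. The highest value was in HD-CR5 and the lowest in CD-HR3, and HD-HR5 and CD-HR5 stood near the upper end although both were healthy recipients. The group means, in ascending order, were CD-HR, 2.44 ± 0.995 CPM (SD, n = 6), HD-HR, 2.88 ± 1.12 (n = 6), HD-CR, 2.97 ± 1.27 (n = 5) and CD-CR, 3.72 ± 0.966 (n = 6), each within 1 SD of its neighbours.

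Over all libraries, the Edn1 difference by recipient was wider with a CKD donor than with a healthy one. CD-CR had 1.55-fold the level of CD-HR, with a 95% interval of 1.04 to 2.31 (log2 0.63 ± 0.28 SE, edgeR adjusted p = 0.242), against 1.56% of all genes called and 0 of 4 members. Adding the prefix to the fit made the log2 fold change 0.91 ± 0.43 (edgeR adjusted p = 0.406), but the single CD-CR rat of prefix 13 (2.64 CPM) gave 0.15 ± 0.53 against CD-HR within that prefix (adjusted p = 0.966). With a healthy donor, where 0.614% of genes and 0 of 4 members were called, the difference was 0.040 ± 0.29 (edgeR adjusted p = 0.956), or 0.27 ± 0.40 with the prefix in the fit and 0.86 ± 0.47 within prefix 13, where HD-CR5 is the only HD-CR rat (adjusted p = 0.757 and 0.344). The order of the donor kinds thus turned within prefix 13. Averaged over donors the Edn1 difference was 0.33 ± 0.20 (edgeR adjusted p = 0.278). The averaged value was 0.59 ± 0.36 with the prefix in the fit and 0.50 ± 0.35 within prefix 13 (edgeR adjusted p = 0.376 and 0.47). The test of the difference between the responses, the donor by recipient interaction, gave 0.59 ± 0.41 (edgeR adjusted p = 1), with 1 of the 11568 genes (0.00864%) called.

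For the donor, Edn1 had log2 fold changes of -0.25 ± 0.29 in healthy recipients (edgeR adjusted p = 0.883) and 0.34 ± 0.29 in CKD recipients (adjusted p = 0.776). In healthy recipients 0% of genes and 0 of 4 members were called, and in CKD recipients 0.0259% and 0 of 4. At an unadjusted p under 0.05 the shares of genes were 7.60% and 8.31%. Among the 9 CKD recipients of prefix 12 the donor difference was 0.67 ± 0.26 (edgeR adjusted p = 0.568), while the 2 of prefix 13 gave -0.95 ± 0.66 (adjusted p = 0.891). The 95% interval over all CKD recipients, 0.841 to 1.91-fold, holds the 1.55-fold fitted by recipient, so a difference of that size by donor is not excluded. With 1 library left out the value ran from 0.19 (without HD-CR1) to 0.60 (without HD-CR5) in CKD recipients, and from -0.43 (without CD-HR5) to -0.032 (without HD-HR5) in healthy recipients.

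Ednra, the type A receptor, had 15 to 38 counts per library. Its level ran from 1.95 to 3.28 CPM in HD-HR (median 2.51), from 2.39 to 3.00 in CD-HR (median 2.53) and from 1.67 to 3.04 in CD-CR (median 2.46). The HD-CR rats stood at 2.49, 3.05, 3.23, 3.52 and 4.41 CPM, so that 2 of 5 were above the highest rat of any other group (3.28 CPM in HD-HR5) and the lowest lay inside the range of each of the others. The means were 2.43 ± 0.487 CPM in CD-CR (SD, n = 6), 2.52 ± 0.492 in HD-HR (n = 6), 2.63 ± 0.280 in CD-HR (n = 6) and 3.34 ± 0.708 in HD-CR (n = 5), of which the first 3 lay within 1 SD of each other.

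Against HD-HR, HD-CR had 1.32-fold the Ednra level, with a 95% interval of 1.02 to 1.73 (log2 0.41 ± 0.19 SE, edgeR adjusted p = 0.243). Against HD-CR, CD-CR had 0.731-fold the level, with an interval of 0.560 to 0.954 (log2 -0.45 ± 0.19, edgeR adjusted p = 0.526), an unadjusted p reached by 4.35% of genes. These contrasts use the same 5 HD-CR libraries and are not independent of each other. Without HD-CR5, the rat with the highest level, the log2 values were 0.29 and -0.34. Within prefix 13, where HD-CR5 is the only HD-CR rat, the recipient difference was 0.86 ± 0.31 (edgeR adjusted p = 0.17), in the fit that included the prefix 0.68 ± 0.26 (adjusted p = 0.169), and among the 9 rats of prefix 12 the donor difference was -0.37 ± 0.24 (adjusted p = 0.825).

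With a CKD donor the Ednra difference by recipient was -0.12 ± 0.18 (edgeR adjusted p = 0.773), which became 0.17 ± 0.27 once the prefix was added to the fit and 0.012 ± 0.35 within prefix 13, and averaged over donors it was 0.14 ± 0.13 (adjusted p = 0.494), with 0.42 ± 0.23 once the prefix was added and 0.44 ± 0.23 within prefix 13. The interaction was -0.53 ± 0.26 (edgeR adjusted p = 1), and 3.75% of genes had a p at least as small. In healthy recipients the donor difference was 0.073 ± 0.18 (edgeR adjusted p = 0.955).

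Ednrb, the type B receptor, had 91 to 303 counts per library and near-equal group means. These were 17.2 ± 4.35 CPM in CD-HR (SD, n = 6), 17.2 ± 3.91 in HD-CR (n = 5), 17.97 ± 3.85 in HD-HR (n = 6) and 18.01 ± 6.86 in CD-CR (n = 6). Single rats ran from 14.0 to 23.2 CPM in HD-HR (median 17.1), from 12.03 to 23.2 in CD-HR (median 18.5) and from 13.2 to 31.8 in CD-CR (median 15.9), and the HD-CR rats stood at 18.04, 12.4, 16.9, 23.1 and 15.4 CPM. CD-CR6, at 31.8 CPM, stood above all other rats, and the other 5 CD-CR rats, at 13.2 to 16.6 CPM, lay inside the ranges of CD-HR and HD-CR.

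The averaged recipient difference of Ednrb was 0.0049 ± 0.15 on the log2 scale, or 1.003-fold with a 95% interval of 0.814 to 1.24 (edgeR adjusted p = 0.988). The averaged donor difference was -0.0018 ± 0.15, with an interval of 0.810 to 1.23-fold (edgeR adjusted p = 0.997). With the prefix in the fit the recipient difference was -0.13 ± 0.28, and within prefix 13 it was -0.10 ± 0.23, so it has no fixed direction. Over all 8 comparisons the largest in size was the interaction, 0.14 ± 0.29 (edgeR adjusted p = 1). Without CD-CR6 the averaged recipient difference was -0.11 and the difference by recipient with a CKD donor moved from 0.074 to -0.17, and neither passed. The latter was -0.035 ± 0.33 within prefix 13, and with a healthy donor the difference was -0.064 ± 0.21 over all libraries and -0.17 ± 0.33 within prefix 13.

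**Figure D2:**
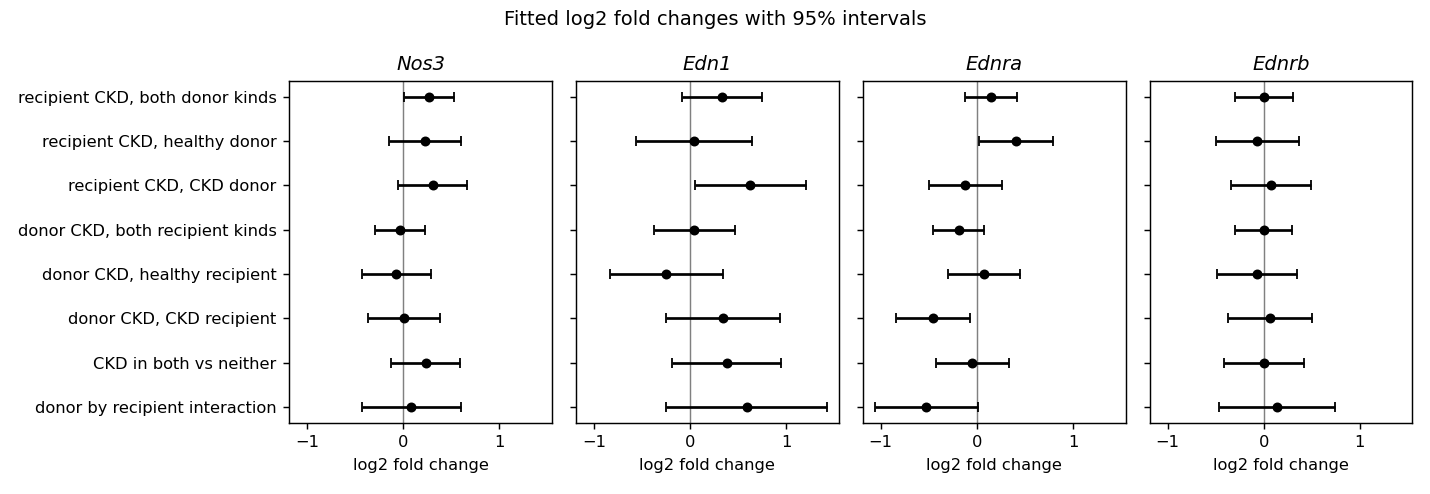
Fitted log2 fold changes (x axes) with 95% intervals from edgeR for the 8 comparisons (y axis), 1 panel per gene. The intervals of Ednrb are centred near 0 throughout, and the 4 intervals that leave out 0 belong to Nos3 by recipient over both donor kinds, Edn1 by recipient with a CKD donor, and Ednra by recipient with a healthy donor and by donor in CKD recipients.

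CKD in both donor and recipient was also set against CKD in neither. CD-CR against HD-HR gave log2 fold changes of 0.23 ± 0.17 for Nos3, 0.38 ± 0.27 for Edn1, -0.047 ± 0.18 for Ednra and 0.0031 ± 0.20 for Ednrb, with edgeR adjusted p-values of 0.485, 0.471, 0.928 and 0.995. Here 3.65% of genes and 0 of 4 members were called. Within prefix 13, where CD-CR5 is the only CD-CR rat, the values were 0.45 ± 0.34 for Nos3, -0.091 ± 0.53 for Edn1, 0.096 ± 0.35 for Ednra and -0.096 ± 0.33 for Ednrb. Averaged over recipients, donor CKD gave 0.046 ± 0.20 for Edn1 and -0.19 ± 0.13 for Ednra (edgeR adjusted p = 0.95 and 0.568), in a comparison where 0% of genes were called and 12.8% had an unadjusted p under 0.05.

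Set beside all genes tested, the members gave the following counts. In the averaged recipient comparison 4 of 4 fitted log2 fold changes were above 0, though Ednrb only by 0.0049 ± 0.15. Their median was 0.20 against -0.0052 over all 11568 genes. With 2 surrogate variables Nos3 (-0.14) and Ednrb (-0.21) were below 0, while Edn1 (0.33) and Ednra (0.18) stayed above. An unadjusted p under 0.05 was found for 1 of 4 members, against 29.5% of all genes. In the averaged donor comparison 1 of 4 was above 0, with a median of -0.017 against 0.011 over all genes.

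How far the spread between rats exceeds counting error differed among the genes. For Nos3 the pooled within-group spread was 21.3% of the mean, against 4.45% from counting alone, and for Ednrb 27.8% against 7.71%. For Edn1 it was 36.4% against 18.7%. For Ednra it was 19.0% against 19.6%, so the variation of Ednra between rats of a group was no larger than its counting error. Counting error here takes reads as independent, which PCR copies are not.

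Ratios of 2 genes within a library do not depend on scaling, and depend on library size only through the pseudocount, which weighs more at low counts. Gene lengths cancel when groups are compared. With a pseudocount of 0.5, ratios were formed of Ednra to Ednrb (the 2 receptors), Edn1 to Nos3 (the constrictor precursor and the synthase) and Edn1 to Ednrb (the ligand and the receptor that clears it). The log2 ratio of Ednra to Ednrb was -2.34 ± 0.44 in HD-CR (SD, n = 5) and -2.80 ± 0.29 in HD-HR (n = 6), a difference of 0.46 (two-sided exact permutation p = 0.0671, Benjamini-Hochberg 0.445 over 15 tests). In CD-CR it was -2.82 ± 0.39 (n = 6), which differed from HD-CR by -0.48 (exact permutation p = 0.0931, adjusted 0.445). The 5 HD-CR rats ran from -2.84 to -1.79 and overlapped both groups. Within prefix 13, HD-CR5 exceeded the mean of HD-HR by 1.01, and among rats of prefix 12 the donor difference was -0.38.

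The log2 ratio of Edn1 to Ednrb was -2.24 ± 0.54 in CD-CR (SD, n = 6) and -2.84 ± 0.51 in CD-HR (n = 6), a difference of 0.60 (two-sided exact permutation p = 0.0736, adjusted 0.445), which was 0.22 within prefix 13. Pooled over donors, CKD recipients (n = 11) differed from healthy recipients (n = 12) by 0.36 in this ratio (permutation p = 0.119, adjusted 0.445), and by 0.64 among rats of prefix 13. The log2 ratio of Edn1 to Nos3 showed the smallest pooled difference, 0.067 (permutation p = 0.798, adjusted 0.799), with means of -4.12 ± 0.59 in CKD and -4.19 ± 0.64 in healthy recipients. None of the 15 differences passed.

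**Figure D3:**
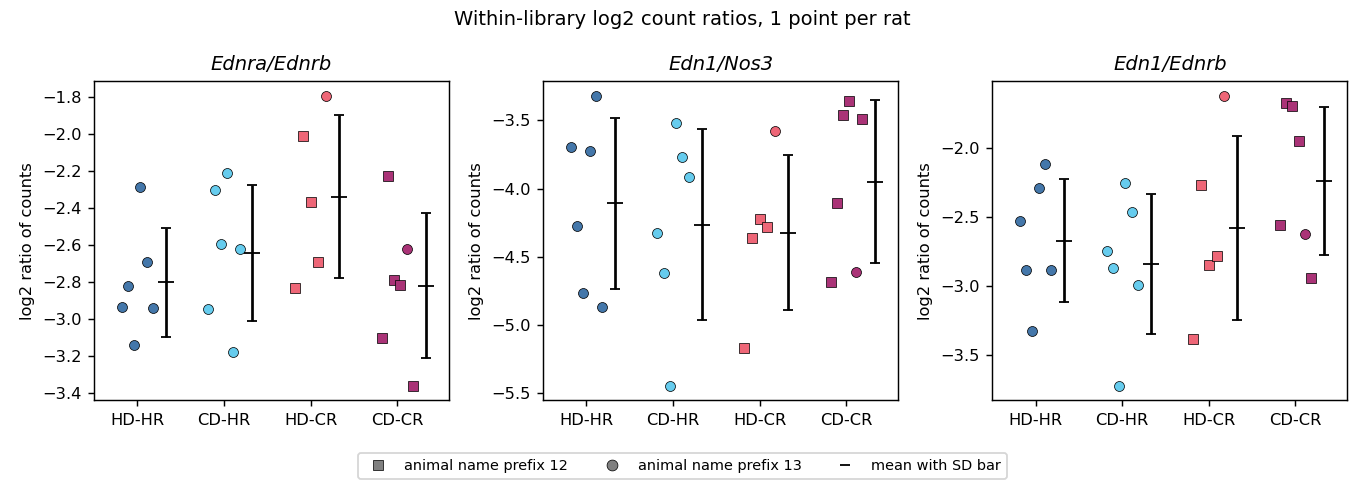
Log2 ratios of counts within each library (y axes, not starting at 0) for Ednra to Ednrb, Edn1 to Nos3 and Edn1 to Ednrb in the 4 groups (x axes), 1 point per rat, with the mean and SD at the right. HD-CR has the highest mean ratio of Ednra to Ednrb (-2.34) and CD-CR the highest of Edn1 to Ednrb (-2.24), with overlapping points in both.

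The 4 genes did not vary together from rat to rat in a way that passed a test. Over the 23 libraries the Pearson correlations of log2 CPM for the 6 pairs ran from 0.035 (Nos3 and Ednra) to 0.31 (Edn1 and Ednra), and no adjusted permutation p was below 0.439. Nos3 and Ednrb, both known from endothelium, had r = 0.23 and rho = 0.19 (permutation p = 0.293 and 0.375), and r = 0.12 without the 2 libraries farthest from the Nos3 median. Within prefix 12 (n = 9) their r was -0.24 and within prefix 13 (n = 14) 0.53.

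After subtraction of the group means, Edn1 and its type A receptor gene had the highest correlation, r = 0.54 and rho = 0.44 (permutation p = 0.00839 and 0.0357, adjusted over 6 pairs 0.0503 and 0.214). Deviations were shuffled across groups, which does not allow for the subtracted means, so these p may be too small. The correlation was 0.54 without CD-HR5 and HD-HR5, the 2 libraries farthest from the median Edn1 deviation, a check that kept HD-CR5. It was 0.74 within prefix 12 (n = 9) and 0.45 within prefix 13 (n = 14). HD-HR5 and HD-CR5 were high in both genes. Without subtraction of the group means, r was 0.0085 within prefix 12 and 0.53 within prefix 13. The values of a library share its scaling factor, and both genes rest on at most 52 counts per library. The within-group spread of Ednra was also no larger than its counting error. For the other 5 pairs the correlations of the deviations lay between -0.062 and 0.34, with adjusted permutation p of at least 0.230 by either coefficient.

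**Figure D4:**
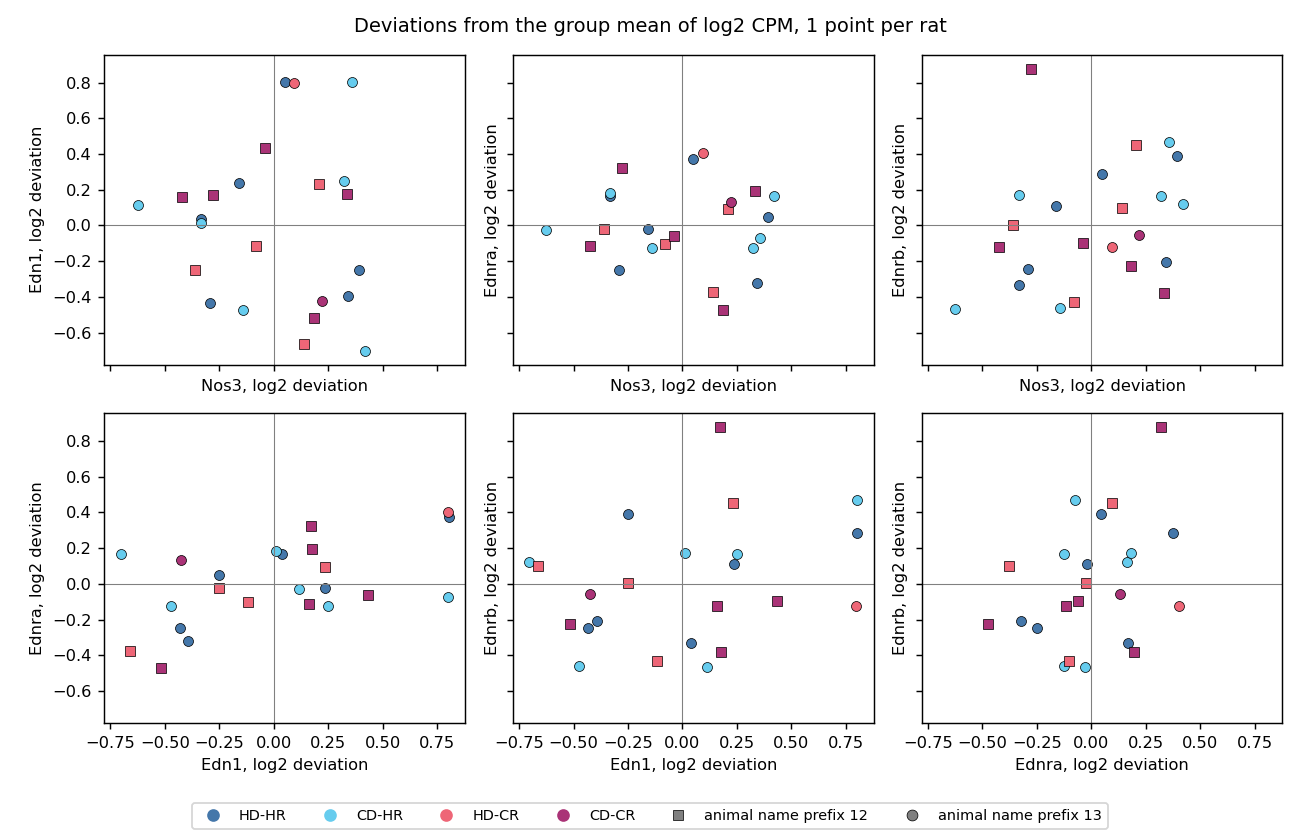
Deviations of log2 CPM from the group mean for the 6 pairs of genes, 1 point per rat, coloured by group, with squares and circles for animal name prefixes 12 and 13. The points of Edn1 (x axis) and Ednra (y axis) slope upwards (r = 0.54), with HD-HR5 and HD-CR5 at the upper right, and CD-CR6 lies at the top of each Ednrb panel.

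The gene whose level followed Nos3 most closely over the 23 libraries, out of 11031 with a mean of at least 1 CPM, was ENSRNOG00000037247 (Pearson 0.88, Spearman 0.85). For Ednrb it was ENSRNOG00000016924 (0.83 and 0.73). The highest values were lower for the sparsely counted genes, 0.78 for Ednra and 0.69 for Edn1. These are the maxima of a search and carry no p. No member was the closest gene of another: the best-ranked was Ednra, which came 813th among the genes most like Edn1.

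Every member was refitted under other settings and with each library left out, 1144 values in all, and none was called. The fit without CD-CR1 is in this total both as a setting and as a left-out library. The smallest adjusted p was 0.0956, for Nos3 by recipient averaged over donors without CD-HR3 (edgeR, Benjamini-Hochberg).

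**Figure D5:**
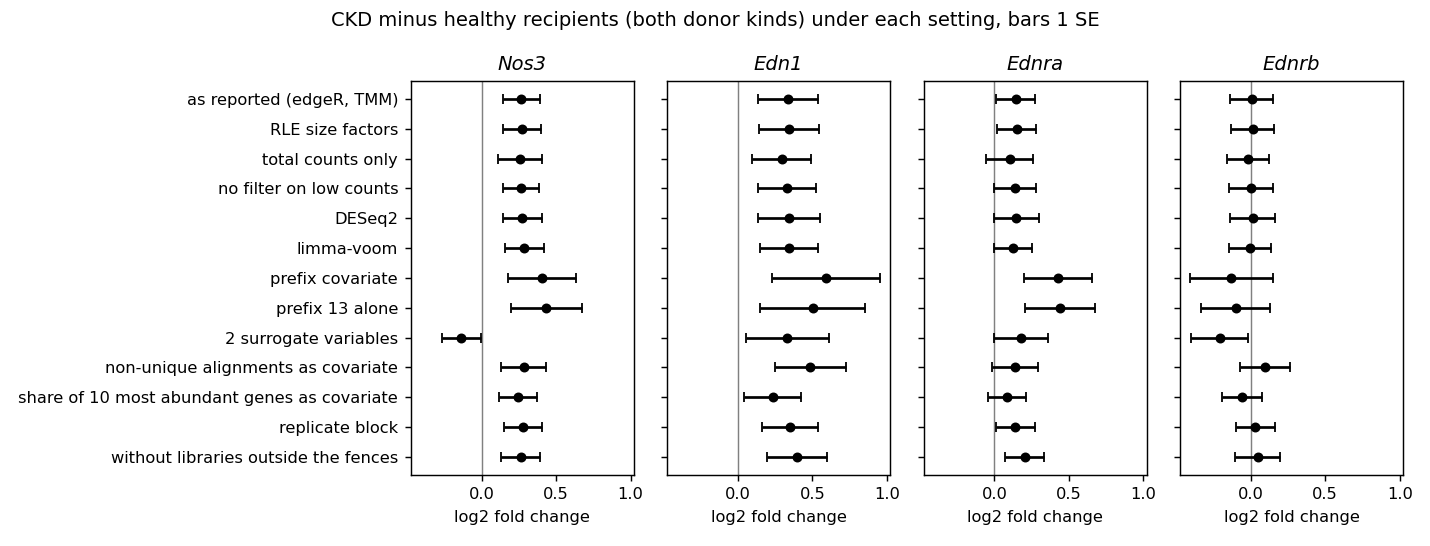
Log2 fold change of CKD against healthy recipients averaged over donors (x axes, bars 1 SE) for each gene as reported and under 12 other settings (y axis). Edn1 and Ednra lie right of 0 in every setting, Nos3 in all but the fit with 2 surrogate variables (-0.14), and Ednrb falls on either side of 0.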

How the data were processed

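The authors deposited, for every library, whole-number read counts per gene. The submitters' processing notes name STAR 2.4.2a, Picard, HTSeq 0.6.1p1 and build Rnor_5.0. The annotation, strand setting and duplicate handling were not given in the sources used here. HTSeq summary lines were left out. Sample titles gave groups and replicate numbers. Libraries of 1 group differed by a chi-square of at least 8.38 per degree of freedom, so none was a copy. Whether rats were handled in separate batches is not stated. The p-values set differences between groups against the spread between rats within groups. By recipient, such a difference may include any effect of the prefix.

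In R 4.3.3, genes were filtered with filterByExpr and scaled by TMM. Contrasts of the 4 groups came from edgeR 4.0.16 (quasi-likelihood, robust). SEs were derived from the fold change and F. Alternatives used DESeq2 1.42.0, limma 3.58.1 and sva 3.50.0. Ratios and correlations (log2 CPM, prior count 2) were tested by permutation, exactly for ratios between single groups and otherwise with 100000 resamples. The code was tested on simulated data.

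The members and lists were chosen with earlier results of these data known. Named were the 4 members and their most correlated genes. The RefSeq table (GRCr8) held 0 Ensembl rat identifiers, so lists of pathway genes and cell markers were not analysed here.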

Additional observations from a re-analysis of the deposited data

Results flagged for a closer look

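One library stood far from the rest of its group. Ednrb was at 31.8 CPM in CD-CR6, while the next CD-CR rat was at 16.6 CPM, a gap of 0.818 of the group's whole range, above Dixon's critical value of 0.625. Of 28 groups of values examined in this way this was the only one, and chance gives about 1 in 20. In the same library Ednra, at 3.04 CPM, was the highest of the CD-CR rats, while Edn1 (4.09 CPM) and Nos3 (46.5 CPM) lay inside the range of the other 5.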

How the results depend on the processing

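Of 1144 refitted member values 0 were called, 1035 kept their direction and 109 reversed, 59 of these among 736 with 1 library left out. The fit without CD-CR1 is counted both as a setting and as a left-out library. Outside the left-out libraries the smallest adjusted p was 0.134 (limma-voom, Nos3 by recipient). The cause of the reversals below (log2 values) was not tested. Reversals occurred for Ednrb and Nos3 as well as for Edn1 and Ednra, whose counting error was highest.

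With total counts in place of TMM, Ednrb was -0.019 by recipient and -0.056 in CD-CR against HD-HR, Edn1 -0.0046 by recipient with a healthy donor and -0.0047 by donor, and Nos3 -0.0045 by donor in CKD recipients. Without a filter Ednrb by donor was 0.0012. With limma-voom Ednrb was -0.0063 by recipient and -0.037 in CD-CR against HD-HR, and Nos3 by donor in CKD recipients -0.0017, which was -0.0032 in a fit of the 2 groups.

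With the prefix in the fit Ednrb was -0.13 by recipient, -0.064 with a CKD donor and -0.13 in CD-CR against HD-HR, and Ednra 0.17 by recipient with a CKD donor and 0.25 in CD-CR against HD-HR. In prefix 13 alone the single HD-CR and CD-CR rats are assumed to vary like the other groups. There Ednrb was -0.10 by recipient, -0.035 with a CKD donor, 0.0042 by donor and -0.10 in CD-CR against HD-HR. Ednra was 0.012 by recipient with a CKD donor and 0.10 in CD-CR against HD-HR, and Nos3 by donor 0.015. Edn1 was -0.59 by donor, -0.95 by donor in CKD recipients, -0.091 in CD-CR against HD-HR and -0.71 in the interaction. The log2 ratio of Ednra to Ednrb by recipient with a CKD donor was 0.023, and that of Edn1 to Nos3 was 0.53 with a healthy and -0.34 with a CKD donor. In prefix 12 alone, chosen after seeing the data, Nos3 by donor in CKD recipients was -0.021.

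With 2 surrogate variables Nos3 was -0.14 by recipient (-0.24 with a healthy and -0.031 with a CKD donor), 0.16 by donor and 0.056 by donor in healthy recipients. Ednrb was -0.21 by recipient, -0.062 with a CKD donor, 0.21 by donor, 0.058 by donor in healthy recipients and -0.0036 in CD-CR against HD-HR, where Ednra was 0.077. With non-unique alignments in the fit Ednrb by recipient with a healthy donor was 0.017. With the top 10 genes' share in the fit Ednrb was -0.059 by recipient, 0.00042 by donor and -0.058 in CD-CR against HD-HR, and Edn1 by recipient with a healthy donor -0.076. Without CD-CR1, Ednrb by donor was 0.025, Nos3 by donor in CKD recipients -0.035 and Ednra in CD-CR against HD-HR 0.059. As deviations from group means, Nos3 correlated at -0.062 with Edn1 and at -0.055 with Ednra.

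With 1 library left out, Ednrb ranged from -0.11 to 0.062 by recipient, from -0.19 to 0.051 with a healthy donor, from -0.17 to 0.17 with a CKD donor, from -0.12 to 0.062 by donor, from -0.17 to 0.018 by donor in healthy and from -0.17 to 0.20 by donor in CKD recipients, from -0.24 to 0.088 in CD-CR against HD-HR and from -0.10 to 0.27 in the interaction. Nos3 ranged from -0.077 to 0.021 by donor, from -0.16 to 0.032 in healthy and from -0.070 to 0.085 in CKD recipients, and from -0.023 to 0.17 in the interaction. Edn1 ranged from -0.22 to 0.26 by recipient with a healthy donor and from -0.044 to 0.17 by donor, and Ednra from -0.12 to 0.059 in CD-CR against HD-HR. The log2 ratio of Edn1 to Nos3 ranged from -0.047 to 0.17 by recipient and from -0.31 to 0.080 by donor in healthy recipients, and that of Edn1 to Ednrb from -0.15 to 0.29 by recipient with a healthy donor and from -0.30 to 0.0051 by donor in healthy recipients.

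The number of genes called changed with the setting. By recipient it was 1483, against 399 with total counts, 6 with the prefix in the fit, 6 with 2 surrogate variables and 0 in prefix 13. With a healthy donor it was 71, against 23 with total counts, 259 with DESeq2, 44 with limma-voom, 306 in a fit of the 2 groups, 47 with the top 10 genes' share, 137 without CD-CR1, 3 with the prefix, 10 in prefix 13 and 0 with surrogate variables. With a CKD donor it was 181, against 50 with total counts, 449 with DESeq2, 32 in a fit of the 2 groups, 109 with non-unique alignments, 334 with the top 10 genes' share, 61 without CD-CR1, 8 with surrogate variables, and 0 with the prefix or in prefix 13. For CD-CR against HD-HR it was 422, against 155 with total counts, 651 with DESeq2, 88 with surrogate variables, 258 without CD-CR1, and 0 with the prefix or in prefix 13. By donor it was 0, against 226 with DESeq2, 11 with total counts, 16 with the top 10 genes' share, and 1 without a filter or without CD-CR1. By donor in healthy recipients it was 0, against 7 with DESeq2. By donor in CKD recipients it was 3, against 36 with DESeq2, 15 with total counts, 7 in a fit of the 2 groups, 5 with the top 10 genes' share and 0 in prefix 13. For the interaction it was 1, and 0 to 2 elsewhere.

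Over 33 pairs of libraries with the same replicate number the correlation of deviations ran from -0.32 to 0.36 (median -0.043), with 12 over 0.1. Pairs with different numbers had a median of -0.017. These correlations showed no pairing by number, but they cannot exclude that the numbers mark shared handling. With a replicate block 1336 genes were called by recipient and 0 members. Under that block Ednrb was 0.0022 by recipient with a healthy donor, -0.034 by donor in CKD recipients and -0.032 in CD-CR against HD-HR, and Nos3 by donor in CKD recipients -0.0036.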
